A study of Mus musculus with 36 samples.

Results

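Neuropeptides are short signalling peptides that neurons cut from larger precursor proteins, pack into dense-core vesicles and release to act on G-protein-coupled receptors. Each precursor gene is used by particular groups of neurons. In the forebrain many of them mark classes of inhibitory interneuron or striatal output neuron, and in the cerebellum part of the peptide in incoming fibres is made by cells whose bodies, and mRNA, lie outside it. The 10 precursor genes described here were Tac1, Npy, Sst, Cck, Vip, Penk, Pdyn, Crh, Adcyap1 and Nts. They were taken by gene symbol, and every probe set annotated to 1 of them was kept, which gave 12 probe sets of the 45101 on the array and 10 of 18193 named genes. Tac1 and Adcyap1 had 2 probe sets each, and the brighter of the pair, the main probe set, is meant below unless the other is named.

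The study profiled total RNA from forebrain and cerebellum of mice of 3 lines, called Stg, Tg and Lh in the labels, on 36 one-colour Affymetrix arrays. Each line gave a -/- and a +/+ group in both tissues, so there were 12 groups with 3 arrays in each. The names fit the mouse mutants stargazer, tottering and lethargic, although the labels do not write these out, and the known mutations of those mutants lie in Cacng2 (an AMPA receptor auxiliary protein also called a calcium channel gamma subunit), Cacna1a (the pore of P/Q-type calcium channels) and Cacnb4 (a calcium channel beta subunit). The labels used here name a mouse as the source of each forebrain RNA, with the words mutant mouse for the +/+ groups as well. They give no age, sex or strain, and they do not say whether forebrain and cerebellum came from the same mice. The p-values below therefore measure the spread between these samples. Values are deposited signal intensities in arbitrary units. Changes are differences of log2(signal + 2.98), which understate changes of dim probe sets, and a change was called when limma's moderated test gave an adjusted p under 0.05 over the 27022 probe sets kept in each fit.

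In the labelled check genes, Cacng2 signal was 4.31 ± 2.67 (SD, n = 3) in Stg-/- against 265 ± 35.7 in Stg+/+ forebrain, and 3.91 ± 1.28 against 636 ± 188 in cerebellum. Cacnb4 was 634 ± 37.4 in Lh-/- against 1348 ± 122 in Lh+/+ forebrain, and 1375 ± 116 against 2121 ± 417 in cerebellum. Its change was called in Lh forebrain but not in Lh cerebellum. In Stg cerebellum Cacnb4 was also lower in -/- (1474 to 1776) than in +/+ (1809 to 2472), and was not called. Cacna1a signal in the Tg line was 135 ± 31.1 in -/- and 118 ± 22.4 in +/+ forebrain, so this probe set does not check that label. Among list genes tested in both tissues, 11 of 11 cerebellar neuron markers were higher in the cerebellum of +/+ mice, while 9 of 9 striatum markers and 6 of 6 cortex and hippocampus excitatory markers were lower there. Over all probe sets 58.2% were called in either direction and 25.8% lower in cerebellum. Array medians of the log2 values lay between 5.39 and 5.72. The pituitary hormone genes Gh and Prl were high in Stg+/+ forebrain replicates 1 and 2 and Lh+/+ forebrain replicate 3, these 3 arrays giving Gh signals of 2603, 2102 and 3526 against at most 176 on the other forebrain arrays.

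Tac1 encodes preprotachykinin 1, the precursor of substance P and neurokinin A. It was the 1 precursor called for genotype among the 10 tested in forebrain and the 6 tested in cerebellum, and the calls were in the cerebellum of the Tg and Lh lines. Vip, Pdyn, Crh and Nts lay below the filter in cerebellum and have no genotype test there. On the Tg-/- cerebellum arrays the Tac1 signal was 121, 122 and 109.8, and on the Tg+/+ cerebellum arrays it was 19.2, 15.9 and 25.02. All Tg-/- arrays lay far above all Tg+/+ arrays, with group means of 117 ± 6.55 and 20.04 ± 4.62. The Tg+/+ mean lay below a signal of 24.01, which corresponds to the filter's cutoff in cerebellum, so the size of the change rests on values near the floor and no ratio is given. Tac1 rose by 2.40 on the log2 scale in Tg cerebellum (SE 0.28, 95% interval 1.82 to 2.98, limma adjusted p = 0.000192), and by 2.51 with 1 and 1.89 with 16 in place of the added 2.98.

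In the Lh line the cerebellar Tac1 signals were 88.5, 178 and 132 in Lh-/- and 38.7, 41.5 and 32.6 in Lh+/+. The groups again did not overlap, although the Lh-/- arrays were spread more widely than the Tg-/- arrays. The means were 133 ± 44.7 and 37.6 ± 4.54, a ratio of 3.53, and the log2 change of 1.69 (SE 0.28, interval 1.11 to 2.28) had a limma adjusted p of 0.0115. With the change between 1.43 and 1.95 throughout, this call was lost in a fit of only the 6 Lh cerebellum arrays (adjusted p = 0.0811) and without any 1 of Lh-/- replicate 2 (0.0746), Lh-/- replicate 3 (0.0769) or Lh+/+ replicate 3 (0.0595).

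In the Stg line the cerebellar Tac1 signals were 47.5, 22.7 and 24.98 in Stg-/- and 29.8, 35.5 and 26.2 in Stg+/+. One Stg-/- array was the highest of the 6 and the other two were the lowest. The log2 change was -0.01 (SE 0.28, interval -0.59 to 0.57, adjusted p = 0.997). The effect differed among the 3 lines (limma F test, adjusted p = 0.0144), and the Tg effect exceeded the Stg effect by 2.41 (SE 0.39, adjusted p = 0.00652). The Lh effect minus the Stg effect was 1.70 (SE 0.39, interval 0.88 to 2.52, adjusted p = 0.127), and the Tg effect minus the Lh effect was 0.71 (interval -0.11 to 1.53, adjusted p = 0.999), so neither of these was called (0.118% and 0.0407% of all probe sets were). The pairwise comparisons of lines were added after the data were seen. Averaged over the lines, cerebellar Tac1 rose by 1.36 (SE 0.16, adjusted p = 8.14e-05).

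Tac1 was thus 1 of 6 tested precursor probe sets called in Tg cerebellum, where 0.574% of all probe sets were called and 0.344% were called higher. It was also 1 of 6 in Lh cerebellum, where 0.155% were called and 0.0555% were called higher. In Stg cerebellum 0 of 6 were called by limma, against 1.3% of all probe sets, and 1 of the 6 (Penk) had an unadjusted p under 0.05. For the mean of the lines the count was 1 of 6 against 1.97%, for the F test among lines 1 of 6 against 0.315%, and for the Tg effect minus the Stg effect 1 of 6 against 0.329%. Ordered by mean cerebellar signal, Lh-/- and Tg-/- came first and overlapped each other, and the arrays of both lay above every array of the other 4 groups. Lh+/+ (37.6), Stg-/- (31.7) and Stg+/+ (30.5) followed and overlapped one another, and Tg+/+ was the lowest, its arrays below all Stg+/+ and Lh+/+ arrays.

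**Figure D1:**
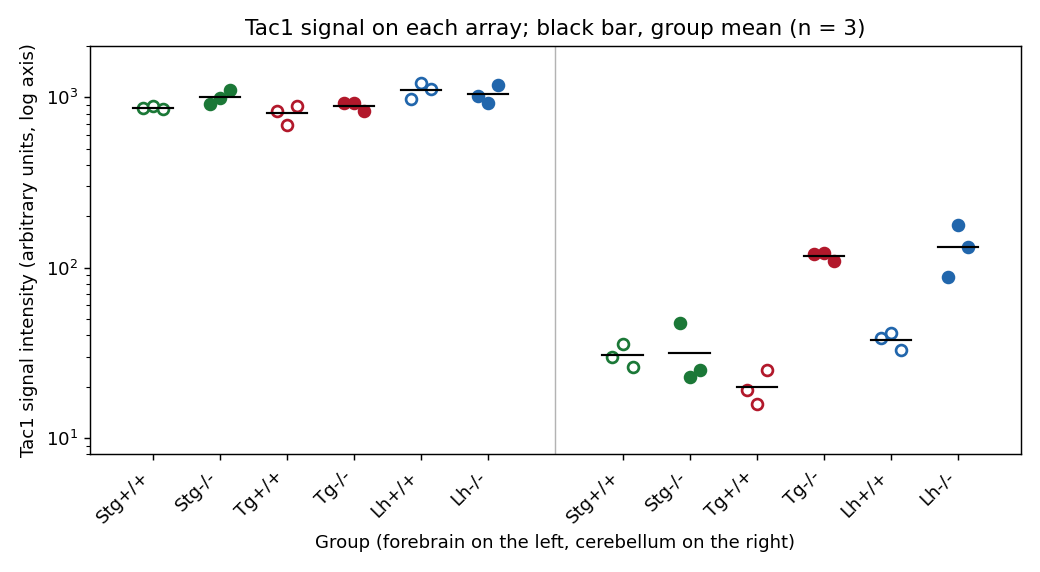
Tac1 signal intensity (arbitrary units, log axis) on each of the 36 arrays by group, forebrain on the left and cerebellum on the right; open points are +/+ arrays, filled points -/- arrays and black bars group means (n = 3). The Tg-/- and Lh-/- cerebellum arrays sit between 88.5 and 178, above all other cerebellum arrays, and all 18 forebrain arrays lie between 691 and 1217.5.

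In the forebrain, where Tac1 marks among others the striatal neurons that project to the substantia nigra, the gene was bright in every group. The signals were 907, 986 and 1108 in Stg-/- against 859, 888 and 851 in Stg+/+. They were 922, 931 and 826 in Tg-/- against 828, 691 and 892 in Tg+/+. They were 1020.5, 927 and 1181 in Lh-/- against 975, 1217.5 and 1118 in Lh+/+. The Stg groups did not overlap, the Tg and Lh groups did, and no forebrain change was called: 0.20 in Stg (interval -0.04 to 0.45, adjusted p = 1), 0.16 in Tg (-0.09 to 0.40, adjusted p = 0.957) and -0.08 in Lh (-0.33 to 0.16, adjusted p = 1). In order of mean, each forebrain group overlapped the next.

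The difference between tissues was tested directly in a fit of all 36 arrays. The Tac1 effect in cerebellum minus that in forebrain was 2.25 in Tg (SE 0.28, adjusted p = 8.61e-05), 1.78 in Lh (SE 0.28, adjusted p = 0.0079) and -0.21 in Stg (SE 0.28, adjusted p = 0.988). Tac1 was 1 of 11 precursor probe sets called in Tg and in Lh, where 0.0259% and 0.0111% of all probe sets were called, and in Stg 0 of 11 were called by limma against 0.248%, with 1 under an unadjusted p of 0.05. The Lh call was lost without the 3 arrays with high Gh and Prl (difference 1.76, adjusted p = 0.0572), without Lh-/- cerebellum replicate 2 (1.54, adjusted p = 0.065) and without Lh+/+ forebrain replicate 2 (1.70, adjusted p = 0.0583). Even in Tg-/- and Lh-/- mice the cerebellar signal stayed below every forebrain array, with a highest value of 178 against a lowest forebrain value of 691.

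The dimmer of the pair of Tac1 probe sets did not follow the main one. Its signals ran from 2.70 to 42.9 in forebrain and from 4.85 to 42.3 in cerebellum, and it fell below the filter in each fit. Its mean in Tg cerebellum was 9.87 in -/- and 23.06 in +/+, the opposite order to the main probe set. Tac1 values here thus rest on 1 probe set.

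Markers of neighbouring tissue were read beside the cerebellar Tac1 result. The summed signal of 13 brainstem and spinal cord markers was 1158 to 1351 on the Lh-/- arrays and 935 to 985 on the Lh+/+ arrays, with no overlap. In Tg it was 1045 to 1237 in -/- and 840 to 1141 in +/+, and in Stg 953 to 1156 against 961 to 1121, both overlapping. Only 4 of the 13 passed the filter in cerebellum and none of the 4 was called in Tg or Lh. Slc17a6, the vesicular glutamate transporter 2 gene, was called higher in Stg cerebellum (0.88, adjusted p = 0.00376) and in the mean of the 3 lines (0.58, adjusted p = 0.000969). Its changes in Tg and Lh were 0.27 and 0.60 (adjusted p = 0.793 and 0.16). Nefh and Slc17a6 were the brightest of the 13 and weigh most in the sums. Their Lh means were 730 and 201 in -/- against 603 and 132 in +/+. The median change of the 4 was 0.30 in Tg and 0.37 in Lh, against -0.01 and 0.02 over all probe sets. In Stg Slc17a6 rose by 0.88, while the changes of Slc6a5, Nefh and Dbh were -0.35, -0.27 and -0.03. Of the 9 below the filter, 6 had a higher mean in -/- than in +/+ cerebellum in Stg, 2 in Tg and 6 in Lh. In Lh the means of Hoxb2, Glra1 and Chat were 21.7, 31.1 and 32.3 in -/- against 7.36, 14.2 and 18.1 in +/+. Those of Tph2, Hoxb5 and Hoxb4 were 4.34, 1.83 and 10.7 against 1.74, 1.18 and 7.54. Hoxa2, Hoxa3 and Hoxb3 went the other way in Lh, at 4.25, 19.8 and 7.22 in -/- against 7.90, 20.1 and 11.5 in +/+. In Tg Hoxb2 read 2.46 in -/- against 17.2 in +/+. The 6 choroid plexus markers had changes above 0 in each line, with medians of 0.54 in Stg, 0.60 in Tg and 1.24 in Lh, and none was called. The summed signal of 11 cerebellum neuron markers was 48453 to 51167 in Lh-/- against 55175 to 57941 in Lh+/+, with no overlap, and 2 of the 11 had a change above 0 (median -0.09). In Tg the sums overlapped, and none of the 11 was called in Tg or Lh. In Stg Gabra6, a GABA receptor subunit gene of granule cells, and En2 were called lower (-0.41 and -0.48, limma adjusted p = 0.0129 and 0.0297). In the mean of the lines Gabra6 and Neurod1, a transcription factor gene of granule cells, fell by 0.37 and 0.23 (adjusted p = 0.000221 and 0.0338). The part of these tissues and cells in the Tac1 values was not tested. In bulk tissue, fewer cells of a type and less RNA per cell cannot be told apart.

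The genes whose signal most resembled that of Tac1 over the 18 cerebellum arrays were sought among all named probe sets kept, by Pearson's r of log2 values. They were Th (r = 0.95), Pcsk1 (0.88), Gja1 (0.81), Arsk (0.80) and Fam117a (0.79). Most of this likeness lay between groups: after removal of group means, r was 0.19 for Th, 0.39 for Pcsk1, 0.04 for Gja1, 0.05 for Arsk and -0.33 for Fam117a. Th encodes tyrosine hydroxylase, the rate-limiting enzyme of catecholamine synthesis. Its cerebellar signals were 551, 606 and 617 in Tg-/- against 31.3, 30.5 and 29.9 in Tg+/+, and 562, 568 and 475 in Lh-/- against 49.07, 57.2 and 37.2 in Lh+/+. Th rose by 4.15 in Tg and 3.42 in Lh (limma adjusted p = 6.96e-10 and 2.1e-08), and its change in Stg was 0.23 (adjusted p = 0.764).

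Pcsk1 encodes prohormone convertase 1/3, which cuts neuropeptide precursors. Its signals were 72.6, 60.8 and 75.8 in Tg-/- against 35.0, 21.9 and 48.5 in Tg+/+, and 71.9, 71.5 and 75.2 in Lh-/- against 34.7, 46.3 and 51.1 in Lh+/+. Neither pair overlapped, but the changes of 0.99 in Tg and 0.71 in Lh were not called (adjusted p = 0.106 and 0.416), and only the mean of the 3 lines was, at 0.63 (SE 0.15, adjusted p = 0.0293). Fam117a rose by 0.996 in Tg and 1.11 in Lh (adjusted p = 0.0205 and 0.0196). Arsk, which encodes a sulfatase, rose by 1.26 in Tg (adjusted p = 0.00811), and its change in Lh was 0.28 (adjusted p = 0.85). Gja1, the connexin 43 gene of astrocytes, had changes of 0.22 and 0.30 that were not called. In forebrain the 5 most alike were Rbm39 (r = 0.89), Zfp612 (0.83), Vps37a (0.82), Rfx7 (0.81) and B4galt6 (0.80), none of them called in any line.

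**Figure D2:**
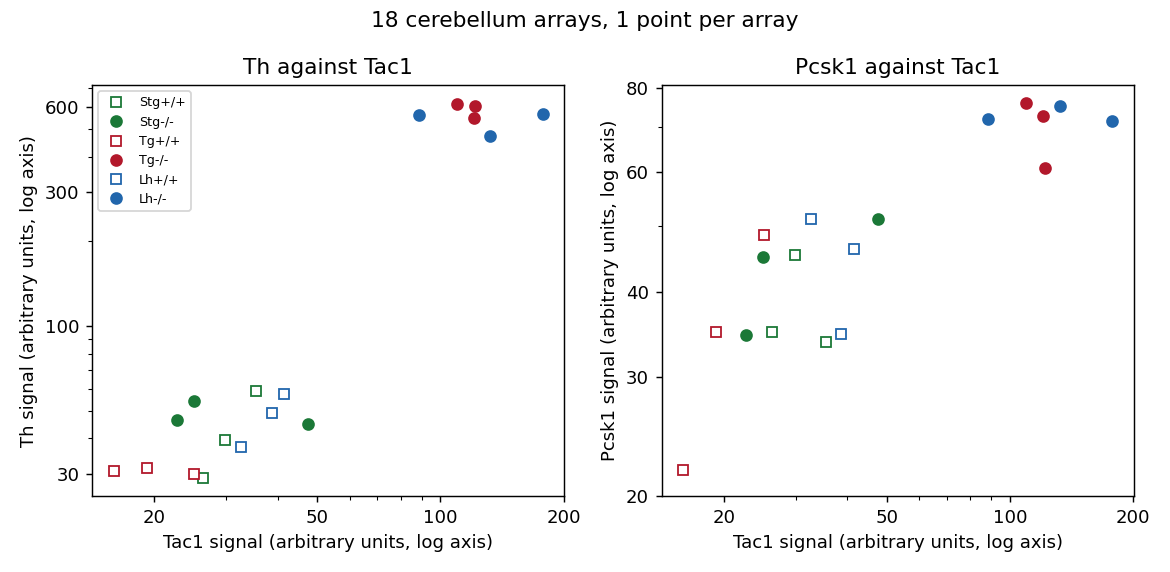
Th signal (left) and Pcsk1 signal (right) against Tac1 signal on the 18 cerebellum arrays, in arbitrary units on log axes; filled circles are -/- arrays and open squares +/+ arrays, coloured by line. The Tg-/- and Lh-/- arrays form 1 cluster at the upper right of both panels, with Th between 475 and 617, and the other 12 arrays form another at the lower left.

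The sequence before the Tac1 transcription start is shown because Tac1, Th and Pcsk1 headed this list. It is the 250 bases upstream of the start in RefSeq's GRCm38.p6 annotation, chr6:7554811-7555060, plus strand. Capitals mark TGACG, the core of the cyclic AMP response element, here read as CGTCA on the other strand, and the E-box CACGTG.
Tac1: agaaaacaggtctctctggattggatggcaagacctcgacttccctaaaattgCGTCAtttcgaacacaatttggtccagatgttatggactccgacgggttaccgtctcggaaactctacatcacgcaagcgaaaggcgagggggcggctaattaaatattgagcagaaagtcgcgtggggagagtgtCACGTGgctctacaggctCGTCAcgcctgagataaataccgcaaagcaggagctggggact

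The Tac1 window held TGACG at -197 and -43 from the start and CACGTG at -61. The full palindrome TGACGTCA, which holds TGACG on both strands, was not among its letters, but it was in the windows of Sst at -48, Th at -45 and Pcsk1 at -78. These stretches, with the palindrome or the single core in capitals, compare the precursors with both genes, which were chosen after their values were seen.
Sst, chr16:23890873-23890904, minus strand: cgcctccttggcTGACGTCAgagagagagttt
Th, chr7:142900021-142900052, minus strand: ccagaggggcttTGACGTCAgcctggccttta
Pcsk1, chr13:75089767-75089798, plus strand: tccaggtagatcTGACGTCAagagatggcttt
Vip, chr10:5639127-5639155, plus strand: ggatcactactgTGACGtctttcggggag
Cck, chr9:121495725-121495753, minus strand: cctgctggactgCGTCAgcactgggtaaa
Adcyap1, chr17:93198914-93198942, plus strand: ggactaggatgcTGACGtcttttactgat

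Over all 32851 RefSeq windows of 300 bases (250 before and 50 after a start, both strands searched), TGACGTCA was in 1.79%, TGACG in 20.8% and CACGTG in 7.15%. TATAAA was in 13.6%, and in the windows of Vip and Adcyap1. Windows were matched for 8 of the 10 precursors, all but Penk and Crh. TGACG was in 6 of the 8, namely Tac1, Sst, Cck, Vip, Adcyap1 and Nts, and CACGTG in Tac1 and Cck. Of these 6, Tac1 was called for genotype in cerebellum, and Vip and Nts were not tested there. Sst, Cck and Adcyap1 were tested there and not called in any line. The Sst changes were 0.18 in Stg, 0.17 in Tg and -0.01 in Lh. Whether these letters bear on any change was not tested. The matches are a description of the letters in these windows.

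All 10 precursors were lower in cerebellum than in forebrain of +/+ mice. The test called 11 of 11 precursor probe sets lower, against 25.8% of all probe sets lower and 58.2% called in either direction. The median difference was -3.16 against 0.06 over all probe sets. Vip, Pdyn, Crh, Nts and the dimmer Adcyap1 probe set lay below the filter in cerebellum alone. They entered this fit of 36 arrays through their forebrain signal, so the filter largely set their direction. The count and the median are thus a description. The median is the value of Pdyn, which moved with the added constant. With 9 +/+ arrays per tissue, the main probe set of each of the 10 genes showed no overlap between tissues, and the same held over all 18 arrays per tissue. The Tac1 signal was 691 to 1217.5 (median 888) in +/+ forebrain and 15.9 to 41.5 (median 29.8) in +/+ cerebellum, a mean 31.5 times as high in forebrain (log2 difference -4.87, SE 0.12, limma adjusted p = 7.16e-26). Vip was 433 to 814 in forebrain and 0.99 to 17.7 in cerebellum, where it lay near the floor of the values. Its log2 difference of -6.38 therefore moved with the added constant, to -6.93 with 1 and -4.90 with 16. The same held for Pdyn (-3.16, and -3.60 and -1.99), Crh (-4.12, and -4.43 and -3.03) and Nts (-3.64, and -3.83 and -2.89), so these sizes have no order. Penk had the narrowest at -1.02 (SE 0.06), from 1442 to 1767 in forebrain down to 643 to 976.

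**Figure D3:**
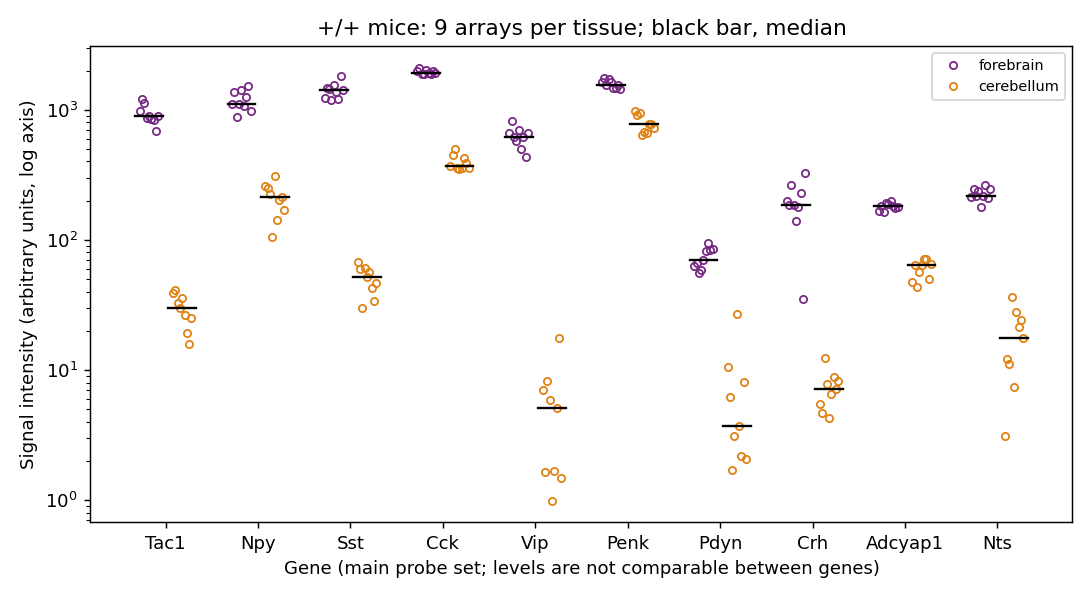
Signal intensity (arbitrary units, log axis) of the main probe set of each precursor on the 9 +/+ forebrain and 9 +/+ cerebellum arrays; black bars are medians. In each gene all forebrain points lie above all cerebellum points, with Penk closest (643 to 976 against 1442 to 1767).

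Npy, Sst, Vip and Cck are made by classes of forebrain interneuron, and Cck also by excitatory neurons. The tissue differences were -2.54 (SE 0.16) for Npy, -4.77 (SE 0.11) for Sst and -2.31 (SE 0.07) for Cck. In forebrain, none of the 4 was called in any line. Npy, the precursor of neuropeptide Y, was 1066, 787 and 666 in Tg-/- against 1257, 1525 and 984 in Tg+/+ forebrain. The Tg groups overlapped, and the change of -0.58 (interval -1.10 to -0.07) had an unadjusted p of 0.0279 and an adjusted p of 0.797. In Stg and Lh forebrain its changes were 0.31 and 0.35 (adjusted p = 1 in both).

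In cerebellum Npy was 138, 177 and 146 in Lh-/- against 261, 250.4 and 225 in Lh+/+. These groups did not overlap, yet the change of -0.67 (interval -1.25 to -0.09) was not called (adjusted p = 0.555). In the Stg+/+ cerebellum Npy ran from 105 to 311 over 3 arrays, as wide as the range over all 18 cerebellum arrays. Sst, the somatostatin precursor, was 1168, 1126 and 1232 in Tg-/- against 1217, 1825 and 1413 in Tg+/+ forebrain. The groups overlapped, and the change of -0.32 (interval -0.59 to -0.05, adjusted p = 0.772) was not called. Its changes in Stg and Lh forebrain were 0.07 and -0.02.

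Cck, the cholecystokinin precursor, was 568, 461 and 615 in Tg-/- against 426, 387 and 358 in Tg+/+ cerebellum. The groups did not overlap, and the change of 0.48 (interval 0.18 to 0.78, adjusted p = 0.236) was not called. In Stg and Lh cerebellum its changes were 0.03 and 0.01. In Stg forebrain Cck was 2077, 2147 and 2081 in -/- against 1895, 2031 and 1911 in +/+, without overlap, and the change was 0.11 (adjusted p = 1). Vip, the precursor of vasoactive intestinal peptide, had forebrain changes of 0.14 in Stg, 0.19 in Tg and -0.07 in Lh and fell below the filter in cerebellum, where its highest signal on any array was 31.6.

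Penk and Pdyn encode the opioid precursors proenkephalin and prodynorphin. Penk kept the highest cerebellar level relative to its own forebrain level of the 10 genes. In Stg cerebellum it was 602, 423 and 565 in -/- against 643, 673 and 660 in +/+. The groups did not overlap, and the change of -0.33 (interval -0.55 to -0.10, adjusted p = 0.197) was not called. In Lh cerebellum it was 1034, 1000 and 980 in -/- against 976, 907 and 939 in +/+, with no overlap and a change of 0.10 (adjusted p = 0.913). The Tg change was -0.18 (adjusted p = 0.817), and the forebrain changes were 0.13 in Stg, -0.01 in Tg and -0.02 in Lh.

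In +/+ cerebellum the Penk signal was 907 to 976 in Lh, 723 to 778 in Tg and 643 to 673 in Stg, with no overlap between the lines. The F test among the +/+ groups had an adjusted p of 0.0604, so 0 of 6 precursor probe sets were called by limma where 0.881% of all probe sets were, and 2 of the 6 (Penk and Tac1) had an unadjusted p under 0.05. The adjusted p of Penk ranged from 0.0382 with array weights to 0.159 without the intensity trend. The pairwise difference of Lh+/+ minus Stg+/+ was 0.51 (SE 0.11, adjusted p = 0.036), called in 0.496% of all probe sets. Lh+/+ minus Tg+/+ was 0.31 (adjusted p = 0.32) and Tg+/+ minus Stg+/+ was 0.20 (adjusted p = 0.61). In +/+ forebrain 0 of 11 precursor probe sets differed among the lines, against 0.414% of all, and Tac1 was the 1 with an unadjusted p under 0.05 (0.00273, adjusted p = 0.237).

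Pdyn was 85.6, 85.3 and 100.3 in Lh-/- against 63.4, 66.1 and 55.7 in Lh+/+ forebrain. The Lh groups did not overlap, and the change of 0.53 (interval 0.10 to 0.96) had an unadjusted p of 0.0185 and an adjusted p of 1. In Stg forebrain it was 103, 75.6 and 113 in -/- against 59.05, 70.6 and 82.4 in +/+, a change of 0.44 (adjusted p = 1), and in Tg the change was -0.26 (adjusted p = 0.959). In cerebellum Pdyn fell below the filter, with signals from 1.40 to 27.1.

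Crh, Adcyap1 and Nts encode the precursors of corticotropin-releasing hormone, PACAP and neurotensin. The tissue difference of Adcyap1 was -1.58 (SE 0.08). Crh was the least repeatable of the 10 in forebrain: its within-group SD was 0.72 on the log2 scale, against 0.14 for Tac1 and 0.05 for Adcyap1. Tg+/+ forebrain replicate 2 read 34.95 for Crh while the next lowest of the 18 forebrain arrays read 139. The Crh changes were 0.16 in Stg, 0.63 in Tg and -0.11 in Lh, with intervals of -0.86 to 1.18, -0.39 to 1.65 and -1.13 to 0.91, and none was called. The Tg value turned to -0.33 without that array. In cerebellum Crh and Nts fell below the filter, with highest signals of 16.7 and 43.7.

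Adcyap1 in cerebellum was 102, 87.2 and 82.0 in Tg-/- against 71.4, 49.8 and 64.9 in Tg+/+, without overlap. The change of 0.53 (interval 0.11 to 0.95) was not called (adjusted p = 0.439). In Lh it was 57.2, 83.1 and 73.3 in -/- against 47.4, 64.3 and 43.7 in +/+, which overlapped, with a change of 0.44 (adjusted p = 0.628). Its dimmer probe set fell below the filter in cerebellum, where it read 24.8 to 26.0 in Lh-/- against 10.5 to 16.3 in Lh+/+. In Tg the dimmer probe set overlapped, at 16.3 to 26.3 in -/- against 2.21 to 32.0 in +/+. It also overlapped in Stg, at 14.9 to 26.0 against 14.6 to 18.6. In forebrain Adcyap1 changes were 0.03 in Stg, -0.01 in Tg and 0.07 in Lh, and Nts changes were 0.17, 0.03 and 0.003, none called.

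In forebrain 0 of 11 precursor probe sets were called in each line by limma, against 0.0111% of all probe sets in Stg, 0.189% in Tg and 0.0148% in Lh. Unadjusted p-values under 0.05 were found for 1 of 11 in Stg, 2 in Tg and 1 in Lh. For the mean of the lines and for the F test among lines the count was again 0 of 11, against 0.0148% and 0.0259%. The median change of the 11 was 0.16 in Stg, -0.01 in Tg and -0.02 in Lh, against 0.002, 0.003 and 0.01 over all probe sets. In forebrain the -/- and +/+ arrays did not overlap for 2 of 11 in Stg (Tac1 and Cck), 0 of 11 in Tg and 1 of 11 in Lh (Pdyn), against 7.45%, 9.7% and 10.7% of all probe sets. In cerebellum this held for 1 of 6 in Stg (Penk), 3 of 6 in Tg (Tac1, Cck and Adcyap1) and 3 of 6 in Lh (Tac1, Npy and Penk), against 15.6%, 14% and 12.7%.

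**Figure D4:**
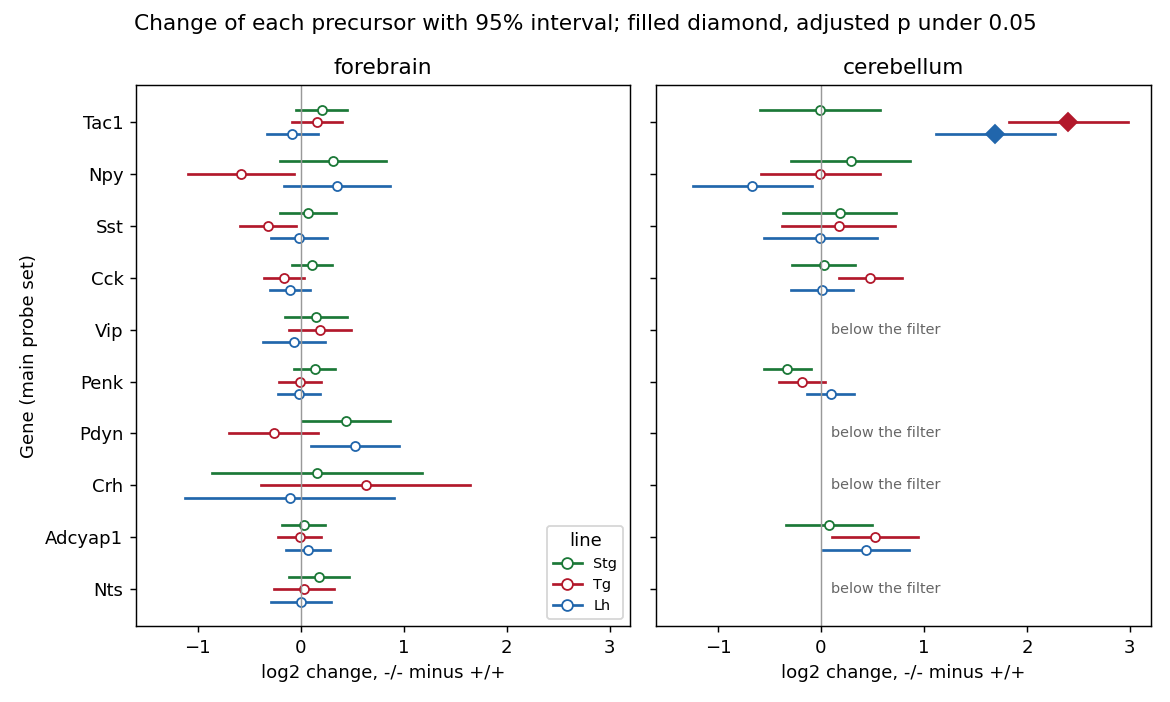
Log2 change (-/- minus +/+) of the main probe set of each precursor with its 95% interval, in forebrain (left) and cerebellum (right), coloured by line; filled diamonds mark adjusted p under 0.05 and genes below the filter are written so. Only Tac1 in Tg (2.40) and Lh (1.69) cerebellum is a filled diamond.

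Other genes of the peptide systems were counted from lists. Of 35 other neuropeptide precursors 25 were on the array, and none of the 14 tested in forebrain or of the 8 tested in cerebellum was called in any line. Between tissues of +/+ mice 11 of the 13 tested were called lower in cerebellum and 1 higher, against 25.8% of all probe sets called lower. The fitted differences were -4.94 for Pmch, -4.15 for Tac2, -4.03 for Grp and -3.70 for Cartpt. All 4 had means near the floor in +/+ cerebellum, so these sizes depend on the added constant. These 4 and others entered that fit through their forebrain signal, since 13 were tested in it and 8 in cerebellum alone. That signal largely set their direction, so the count is a description. Pmch encodes the melanin-concentrating hormone precursor, Tac2 that of neurokinin B, Grp that of gastrin-releasing peptide and Cartpt the CART precursor. Npff, the neuropeptide FF precursor, was the 1 higher in cerebellum (1.35, SE 0.33, adjusted p = 0.00081).

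Among 25 receptors and binding partners of the 10 peptides, none of the 18 tested in forebrain was called in any line. In cerebellum 1 of 9 was called, Adcyap1r1, the PACAP receptor. It rose in Stg by 0.56 (SE 0.13, limma adjusted p = 0.0403) from a mean signal of 367 to 539.9. In the mean of the lines it rose by 0.33 (limma adjusted p = 0.027). Over all probe sets 1.3% were called in Stg cerebellum and 1.97% in the mean of the lines. None of the 9 was called in Tg or Lh cerebellum. Between tissues 11 of the 15 tested were called lower in cerebellum, against 25.8% of all probe sets. Among them were Cckbr (-4.24), Crhbp (-3.67), Npy5r (-3.51) and Tacr3 (-3.47). These were again near the floor in cerebellum and entered the fit through their forebrain signal, which largely set their direction. With 15 tested in this fit and 9 in cerebellum alone, the same held for others, and the count is a description. Crhr1, a CRH receptor, was the 1 higher in cerebellum (1.58). The substance P receptor gene Tacr1, chosen after its values were seen, was dim in both tissues, with group means of 1.84 to 7.71 in cerebellum and 3.58 to 19.1 in forebrain.

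Of 8 precursor-processing genes on the array, 7 were tested in cerebellum. Pcsk1 was the 1 called, in the mean of the lines, where 1.97% of all probe sets were called. Among 22 activity-regulated genes, none was called in Tg or Lh in either tissue. In forebrain 7 of 22 had a change above 0 in Stg (median -0.08), 0 of 22 in Tg (-0.50) and 11 of 22 in Lh (-0.004). In cerebellum 1 of the 17 tested had a change above 0 in Stg (median -0.47), 3 in Tg (-0.49) and 9 in Lh (0.01). The medians over all probe sets were 0.002, 0.003 and 0.01 in forebrain and 0.01, -0.01 and 0.02 in cerebellum. In Stg cerebellum Bdnf, a neurotrophin gene, fell by 2.44 (adjusted p = 0.000713). The lists of forebrain interneuron, striatum, hypothalamus and pituitary, olfactory bulb, thalamus and cortex markers had no gene called in forebrain in any line. In Lh cerebellum Calb2 of the interneuron list, the calretinin gene that cerebellar granule cells also express, fell by 0.89 (adjusted p = 0.0112), and Th, which is on the olfactory bulb list, was the 1 other marker called in Tg or Lh cerebellum. In Stg cerebellum Ntng1 of the thalamus list and Nrn1 of the cortex list were called lower (-1.15 and -0.58, limma adjusted p = 0.000373 and 0.00906). Calb2, Ntng1 and Nrn1 were also called lower in the cerebellar mean of the lines (-0.35, -0.49 and -0.30, limma adjusted p = 0.0294, 0.0049 and 0.0193).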

How the data were processed

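Total RNA of mouse forebrain and cerebellum was measured on 1-colour Affymetrix arrays, per the labels. The authors deposited linear signal intensity values, 1 per probe set and array, and their path from scan to signal is not stated in the labels used here. The mean after trimming 2% at each end was 150 on every array. Probe sets were named from the platform annotation: 34945 had 1 symbol, 932 several and 9160 none, with 64 AFFX controls left out. From the deposited intensities log2(signal + 2.98) was computed, the constant being the 10th percentile of all values. Probe sets were kept if their mean log2 value exceeded the 40th percentile (27022 per fit, a cutoff near a signal of 24.6 in forebrain and 24.01 in cerebellum). limma 3.58.1 in R 4.3.3 (lmFit, eBayes with trend) was fitted to 18 arrays per tissue, or to all 36 for tissue differences, with Benjamini-Hochberg adjustment over all probe sets kept and calls at 0.05. The scripts were tested on simulated data. The number of arrays, 3 per group, limits the precision. Alternatives changed the filter, scaling, constant, variance model, weights or arrays. The 10 genes and all lists were chosen with earlier results of these data known. Not every called list gene was named, and like genes were the 5 highest correlations with Tac1. Same-numbered cerebellum arrays of the 2 genotypes correlated after removal of group means at 0.16 to 0.38 in Stg, 0.04 to 0.29 in Tg and 0.09 to 0.33 in Lh. Except for Tg replicate 2, the same-numbered array was the best match in both directions, so the cerebellum numbers carry shared structure. Its source was not tested, and the reported fits have no block. Forebrain arrays were numbered in record order within each group, since most of their titles carry a sample number that runs across groups; 1 title, of a Stg-/- forebrain array, carries the number 2, and that array is replicate 1 here. The forebrain numbers pair no samples.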

Additional observations from a re-analysis of the deposited data

Results flagged for a closer look

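The Tac1 effect of genotype differed between tissues in Tg, where cerebellum minus forebrain was 2.25 on the log2 scale, and in Lh, where it was 1.78. Both were called by the test of the difference itself in the fit of all 36 arrays. The Tac1 effect in cerebellum also differed between lines, with the effect in Tg exceeding that in Stg by 2.41. This comparison of Tg with Stg was added after the data were seen.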

How the results depend on the processing

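Of 326 recomputed counts of precursor probe sets, 313 stayed within 1.5 times the reported count and 13 did not. The stricter filter at the 60th percentile removed Tac1 from the cerebellum, so the counts for Tg, Lh, the mean of the lines and the difference among lines were 0, and 7 rather than 11 probe sets differed between tissues, since fewer were tested. The Lh cerebellum count was 0 in a fit of only 6 arrays, and 0 to 1 when each array was left out. The count for the Lh tissue difference was 0 without the 3 arrays with high Gh and Prl and 0 to 1 when each array was left out. With array weights 1 probe set (Penk) differed among the +/+ cerebellum groups. The causes of these changes were not tested, apart from the filter. Tac1 in Tg cerebellum passed under 9 of 9 alternatives in which it was tested (1.89 to 2.51, adjusted p 2.55e-05 to 0.000808) and without each of 6 arrays (adjusted p 0.000766 to 0.00293). In Lh cerebellum it passed under 8 of 9 (1.43 to 1.78, adjusted p 0.00603 to 0.0811) and without 3 of 6 arrays. With the replicate number as a block, which the labels do not state to be a pairing, 1 precursor probe set was called in Tg, 1 in Lh and 0 in Stg cerebellum, and Tac1 in Lh had an adjusted p of 0.0105. The block changed no call. The 75 changes of the other precursors in the fits of genotype were not called, nor were any of 1326 values recomputed for them, 95 of which had another sign. The run of records as a block and the fit without the 3 arrays were chosen after seeing the data. So were the pairwise differences of the effect between lines. Probe sets near the floor, among them Vip, Pdyn, Crh and Nts in cerebellum, lay below the filter used for the reported calls.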

Other observations

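Tg+/+ forebrain replicate 2 gave the lowest or highest forebrain signal for 4 of the 10 precursors. It was lowest for Tac1 (691), Vip (433) and Crh (34.95) and highest for Sst (1825). Its value for the dimmer Adcyap1 probe set was also the lowest, at 17.6 against a next lowest of 39.1.

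After removal of group means, 26 of 45 pairs of precursors had a correlation above 0 over the 18 forebrain arrays, with a median of 0.11 and a range of -0.62 to 0.81. Without Tg+/+ replicate 2 the median was 0.09. Over the 18 cerebellum arrays the 15 pairs of tested precursors had a median of -0.05 and a range of -0.33 to 0.44. All pairs share the same arrays and their scaling, and these values are a description.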
